A study of Mus musculus with 12 samples.

Results

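The genes described here are those of glutathione synthesis and of the response driven by the transcription factor NRF2, measured in primary mouse hepatocytes during stimulation with TGF-β1. They comprise 10 genes, Gclc, Gclm, Gss, Gsr, Nqo1, Hmox1, Txnrd1, Srxn1, Anpep and Nfe2l2, chosen by name with earlier results of these data known. Anpep, listed with them, acts on a product of glutathione breakdown and not in its synthesis. Each of the 10 genes was measured by 1 probe set that the platform annotation pairs with exactly 1 gene symbol. Thus 10 of the 21789 tested probe sets are described.

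Glutathione is the main low molecular weight thiol of the hepatocyte, made from glutamate, cysteine and glycine in consecutive steps. NRF2, encoded by Nfe2l2, is held at low levels by its partner KEAP1 and, when electrophiles or oxidants modify KEAP1, enters the nucleus, pairs with small MAF proteins and binds antioxidant response elements. Its known targets include both subunits of glutamate-cysteine ligase, heme oxygenase and the quinone and thioredoxin reductases. TGF-β1 is a cytokine that acts through SMAD proteins and limits hepatocyte growth.

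Transcripts were measured on 12 Affymetrix Gene 1.0 ST mouse arrays in hepatocytes (HPC) from male C57BL/6 mice, isolated with collagenase and cultured on collagen in HepatoZYME-SFM for 24 h. The groups were untreated cells (control) and cells after 20 min, 2 h or 4 h with recombinant human TGF-β1 at 1 ng/mL, with 3 arrays each. The medium was exchanged 1 h before stimulation and the control was taken at 0 min only, so that time in fresh medium and treatment cannot be told apart. The mice's age is not given in the sources used here, nor whether each replicate number is 1 animal. The methods list 1 h instead of the 20 min of the labels. The paper's supplement lists both times and states that the 1 h chips were left out for their quality.

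Values are log2 signals after robust multi-array averaging (RMA). Levels of the 10 genes are compared within a probe set only. Marker signals are also averaged, summed or set beside the median of the tested probe sets. Those values describe signal and not the RNA amount of 1 gene against another. Changes are log2 differences from a limma fit that held both the time point and the replicate number, given ± its standard error (SE). Adjusted p values (Benjamini-Hochberg) were taken over all 21789 probe sets and called under 0.05. The array medians lay between 6.82 and 6.93. Replicate 1 stood apart from replicates 2 and 3. It lay outside them on the same side in all 4 groups for 36.6% of the tested probe sets and for 10 of the 10 genes, below them for 8 and above them for Hmox1 and Anpep. The paper reports a strong batch effect in its mouse hepatocyte chips, without naming the arrays, and adjusted for it. The deposited RMA values are described without such an adjustment. Whether replicate 1 reflects that batch was not tested. The 10 hepatocyte markers, among them albumin, transthyretin and Hnf4a, lay above the median signal of the tested probe sets.

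Promoter sequence was taken from RefSeq (GRCm38.p6) for 7 of the 10 genes. In each window the 250 bases before the annotated start were searched on both strands for TGACNNNGC, the core of the antioxidant response element, and for its variant TGAGNNNGC, which overlaps the AP-1 element TGAGTCA where the letters allow. Of all 32851 windows, 10.2% held the first, 14.4% the second and 23% either. Among the 9 windows of the 7 genes, 4 held a match, and these are shown since they carry the only letters of the element found, with the matches in capitals. The Gclm window (chr3:122245307-122245486, + strand) is printed only up to where the annotated gene begins. The Txnrd1 window (chr10:82858956-82859205, + strand) lies within the span of the gene, before the second of 3 annotated starts. The others are Srxn1 (chr2:152105274-152105523, + strand) and Nfe2l2 (chr2:75704664-75704913, - strand).
Gclm: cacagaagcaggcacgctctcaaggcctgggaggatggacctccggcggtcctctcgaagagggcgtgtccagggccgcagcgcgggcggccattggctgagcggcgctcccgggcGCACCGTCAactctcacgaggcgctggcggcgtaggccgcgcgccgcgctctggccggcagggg
Txnrd1: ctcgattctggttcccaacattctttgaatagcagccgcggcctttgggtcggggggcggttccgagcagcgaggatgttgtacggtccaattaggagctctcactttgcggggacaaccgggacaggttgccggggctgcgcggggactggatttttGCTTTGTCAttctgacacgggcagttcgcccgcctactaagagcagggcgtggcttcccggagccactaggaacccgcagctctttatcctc
Srxn1: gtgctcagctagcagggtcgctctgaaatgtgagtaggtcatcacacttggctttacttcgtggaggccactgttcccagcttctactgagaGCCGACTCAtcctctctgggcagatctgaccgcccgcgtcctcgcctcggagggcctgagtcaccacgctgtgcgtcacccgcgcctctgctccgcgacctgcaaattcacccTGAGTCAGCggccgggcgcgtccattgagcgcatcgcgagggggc
Nfe2l2: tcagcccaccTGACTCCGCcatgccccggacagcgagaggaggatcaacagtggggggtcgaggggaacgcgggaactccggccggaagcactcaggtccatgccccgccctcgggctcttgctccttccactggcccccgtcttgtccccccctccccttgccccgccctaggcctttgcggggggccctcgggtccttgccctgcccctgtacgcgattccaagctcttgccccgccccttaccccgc
Counted from the start that belongs to each window, TGACNNNGC began at -134 in Gclm and -92 in Txnrd1, both on the reverse strand, and at -240 in Nfe2l2. For Gclm this start lies inside the annotated gene. Srxn1 held TGAGNNNGC at -158 on the reverse strand and at -45, where it overlapped TGAGTCA. No match was found in these windows of Gss, Nqo1 and Anpep. A match is a description of the letters and not a binding site.

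Among the 10 genes, Gclc rose and Anpep fell after 4 h of TGF-β1. Gclc encodes the catalytic subunit of glutamate-cysteine ligase, the rate-limiting enzyme of glutathione synthesis, and gained 0.47 ± 0.10 on the log2 scale. Anpep encodes aminopeptidase N, a cell surface enzyme that splits the cysteinylglycine left over from glutathione breakdown, and fell by 0.58 ± 0.09. The other 8 genes did not pass the test. Over all probe sets 1.57% rose and 3.02% fell at 4 h, against 1 and 1 of the 10 genes, and 17% had an unadjusted p under 0.05, against 4 of the 10. The median change of the 10 genes was 0.12, beside 0.02 over all probe sets. The 10 genes and the lists below were chosen with earlier results of these data known. Setting them beside all probe sets is therefore a description and not a test. None of the 10 reached a 2-fold change.

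**Figure D1:**
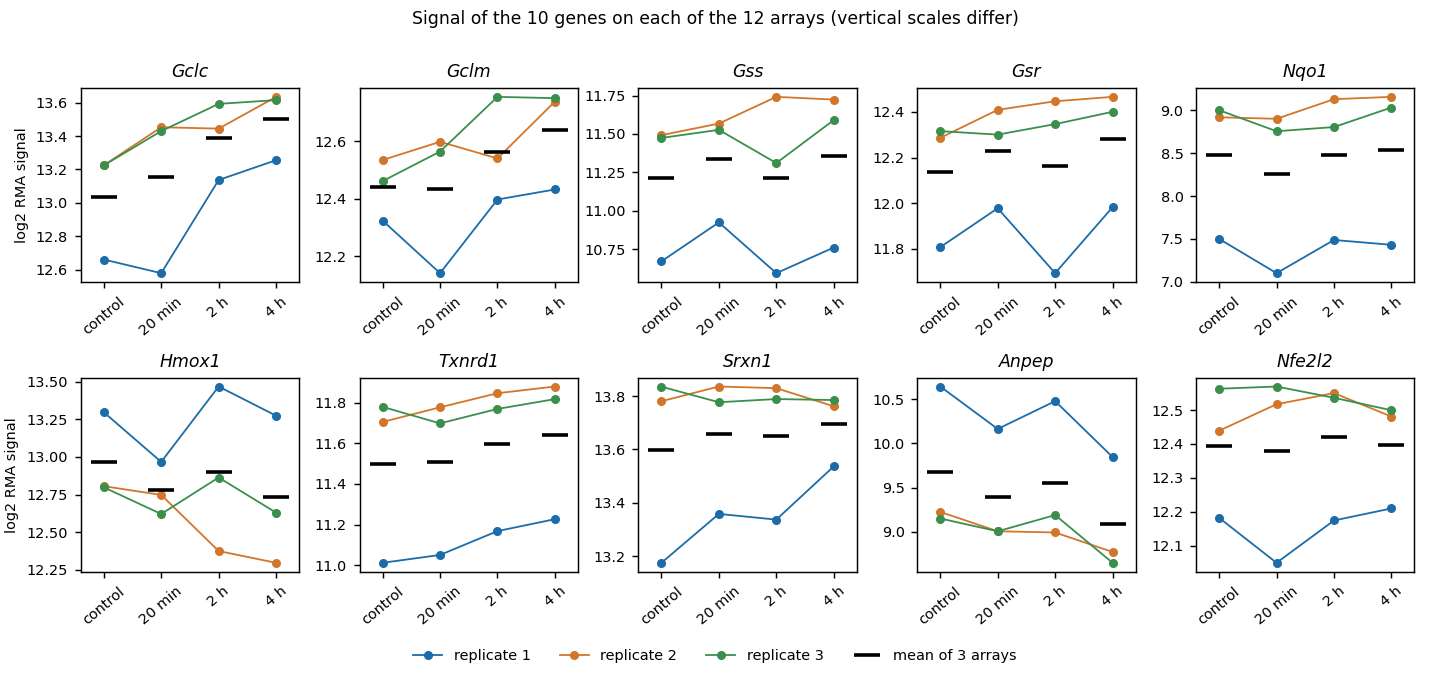
Log2 RMA signal (vertical axis, own scale per gene) of the 10 genes at control, 20 min, 2 h and 4 h (horizontal axis). Points are single arrays joined by replicate number and black bars are means of 3 arrays. Replicate 1 lies below replicates 2 and 3 at every time point in 8 genes and above them in Hmox1 and Anpep.

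The signal of Gclc (probe set 10587266) in control cells was 12.66, 13.22 and 13.22 in replicates 1, 2 and 3. At 20 min it was 12.58, 13.45 and 13.43, and at 2 h it was 13.14, 13.44 and 13.59. At 4 h it reached 13.26, 13.63 and 13.62, above every control array, and Gclc was the 1 gene of the 10 whose 4 h and control arrays did not overlap, beside 11% of all probe sets. Each replicate rose over its own control at 4 h, by 0.59, 0.41 and 0.39. This is a 1.38-fold change with a 95% interval of 0.25 to 0.68 on the log2 scale (limma, adjusted p = 0.0216). At 2 h the difference was 0.35 ± 0.10 and positive in 3 of 3 replicates, which did not pass (limma, adjusted p = 0.409, unadjusted p = 0.0037). Over the time course as a whole, the moderated F test of limma gave Gclc an adjusted p of 0.0815.

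The call for Gclc depended on single arrays. It was lost without any 1 of the control or 4 h arrays, with adjusted p values from 0.0558 to 0.0951 and changes of 0.39 to 0.52, as well as without replicate 2 (0.108) or replicate 3 (0.192). Without replicate 1 the change was 0.40 (limma, adjusted p = 0.0181). It was also lost with the replicate block as a random effect (0.207) and when all probe sets were tested (0.0753). Under a fit without the replicate block the same difference had an adjusted p of 0.97, and 31 probe sets in all were called instead of 1000.

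Gclm (probe set 10495763) encodes the modifier subunit that pairs with Gclc. Its signal was 12.32, 12.53 and 12.46 in control cells and 12.43, 12.74 and 12.75 at 4 h, higher in 3 of 3 replicates with overlapping groups. The difference of 0.20 ± 0.08 fell short of the threshold (limma, adjusted p = 0.184, unadjusted p = 0.0216), and its 95% interval ran from 0.04 to 0.36. With array weights the difference was 0.24 with an adjusted p of 0.0388. Gss (probe set 10488879), glutathione synthetase, catalyses the step that adds glycine. It read 10.67, 11.49 and 11.47 in control cells and 10.76, 11.72 and 11.59 at 4 h, a difference of 0.15 ± 0.09 in the same direction in 3 of 3 replicates (limma, adjusted p = 0.467). At 2 h its replicates pointed in different directions, with -0.08, 0.25 and -0.16.

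Gsr (probe set 10571274), glutathione reductase, returns oxidised glutathione to its reduced form. Its control arrays read 11.81, 12.29 and 12.32 and its 4 h arrays 11.98, 12.47 and 12.40. The change of 0.15 ± 0.07 was positive in 3 of 3 replicates without passing (limma, adjusted p = 0.347). Thus the 3 genes of synthesis and recycling other than Gclc had 4 h estimates between 0.15 and 0.20, each with overlapping groups.

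None of the thioredoxin genes passed. Txnrd1 (probe set 10365260), the cytosolic thioredoxin reductase, read 11.01, 11.71 and 11.78 in control cells and 11.23, 11.88 and 11.82 at 4 h. Its replicates differed from their controls by 0.22, 0.17 and 0.04, or 0.14 ± 0.06 in the fit (limma, adjusted p = 0.237, unadjusted p = 0.0336). Srxn1 (probe set 10477061), sulfiredoxin, repairs overoxidised peroxiredoxins. It read 13.18, 13.78 and 13.84 in control cells and 13.54, 13.76 and 13.79 at 4 h. Only replicate 1 was higher, by 0.36, while replicates 2 and 3 gave -0.02 and -0.05 (limma, adjusted p = 0.601). Without replicate 1 the difference was -0.03.

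Nqo1 (probe set 10581538), the quinone reductase often used as a readout of NRF2 activity, had the widest gap between replicates of the 10 genes. In control cells it read 7.50, 8.92 and 9.00, and replicate 1 differed from the mean of the others by -1.73 to -1.46 in the 4 groups. At 20 min it read 7.10, 8.90 and 8.76, lower in 3 of 3 replicates by 0.22 ± 0.09 (limma, adjusted p = 0.521, unadjusted p = 0.0243). It read 7.49, 9.13 and 8.81 at 2 h and 7.43, 9.16 and 9.03 at 4 h, where the difference from control was 0.07 ± 0.09 (limma, adjusted p = 0.773). Neither difference passed.

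Hmox1 (probe set 10572897), heme oxygenase, breaks down heme and is a classical NRF2 target that the repressor BACH1 also controls. Its arrays read 13.30, 12.81 and 12.80 in control cells, 12.97, 12.75 and 12.62 at 20 min, 13.47, 12.37 and 12.86 at 2 h, and 13.27, 12.30 and 12.63 at 4 h. The 4 h estimate of -0.23 ± 0.14 was negative in 3 of 3 replicates, from -0.51 in replicate 2 to -0.02 in replicate 1, and did not pass (limma, adjusted p = 0.435). Its SE was the largest of the 10 genes.

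Nfe2l2 itself (probe set 10483809) read 12.18, 12.44 and 12.56 in control cells and 12.21, 12.48 and 12.50 at 4 h. The difference was 0.00 ± 0.06 with a 95% interval of -0.14 to 0.14 (limma, adjusted p = 0.993). At 20 min and 2 h it was -0.02 and 0.03. These arrays measure the transcript, and NRF2 is regulated mostly through the stability of the protein, which was not measured here.

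**Figure D2:**
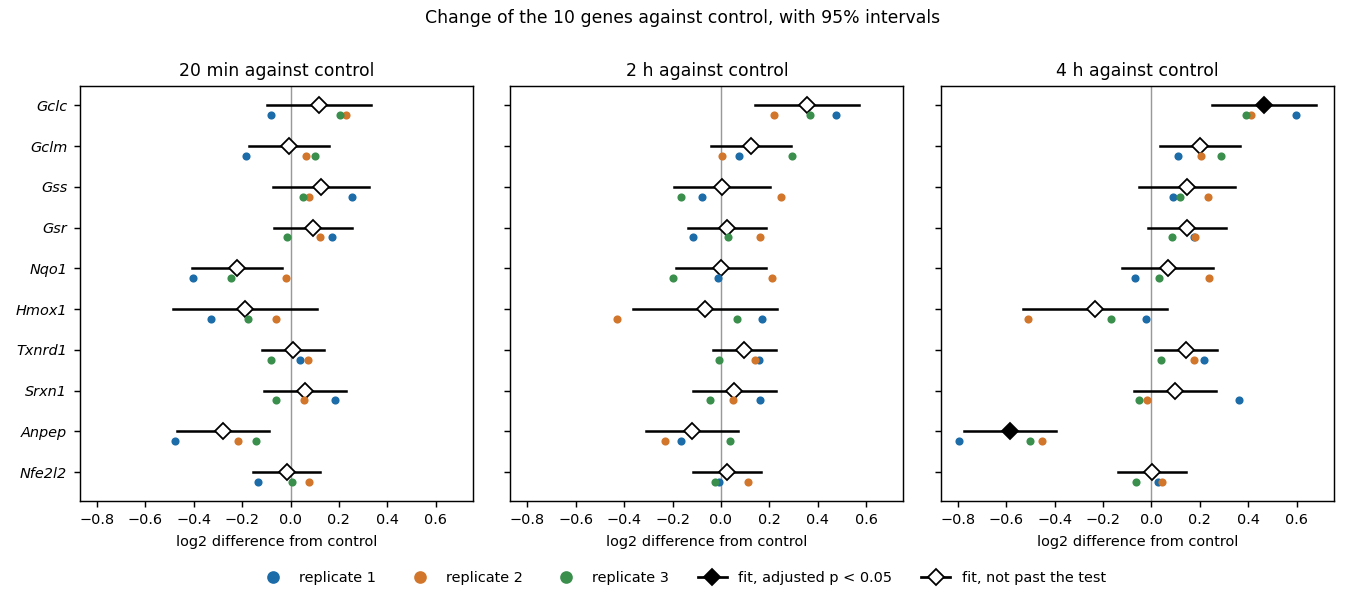
Log2 difference from control (horizontal axis) of the 10 genes (vertical axis) at 20 min, 2 h and 4 h. Diamonds and bars are limma estimates with 95% intervals, filled where the adjusted p is under 0.05, and coloured points are the 3 replicates against their own control. Gclc and Anpep at 4 h carry the filled diamonds.

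Anpep (probe set 10564818) read 10.64, 9.23 and 9.15 in control cells and 10.16, 9.01 and 9.01 at 20 min. It read 10.48, 8.99 and 9.19 at 2 h and 9.85, 8.77 and 8.65 at 4 h. Replicate 1 stood 1.13 to 1.45 above the mean of the others in each group, so the groups overlapped, yet each replicate was lower at 4 h than its own control, by -0.80, -0.45 and -0.50. The 4 h level was 0.668 of control, with a 95% interval of -0.77 to -0.39 on the log2 scale (limma, adjusted p = 0.00475). Anpep was also the 1 gene of the 10 called over the time course (moderated F test of limma, adjusted p = 0.026), beside 1.4% of all probe sets. The 20 min estimate was -0.28 ± 0.09 and the 2 h estimate -0.12 ± 0.09, neither of which passed (limma, adjusted p = 0.435 and 0.953).

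The 4 h call for Anpep was lost without replicate 3 (-0.62, limma, adjusted p = 0.0993), without the replicate block (0.996) and with the block as a random effect (0.459). In these fits 32, 31 and 225 probe sets in all were called, instead of 1000. The Anpep call held without any single array, with changes from -0.66 to -0.51 and adjusted p values from 0.00326 to 0.0316. The time course call was lost in 10 of 15 fits that left out a replicate or an array, with adjusted p values up to 0.438.

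Anpep is also carried by macrophages, whose markers moved in these arrays. Of 14 Kupffer cell and macrophage markers, 7 fell at 4 h and 0 rose, beside 3.02% and 1.57% of all probe sets. Their median was -0.43. Csf1r, the receptor for macrophage colony-stimulating factor, fell by 0.57 ± 0.07, and Fcer1g, an Fc receptor chain, by 0.85 ± 0.11 (limma, adjusted p = 0.002 and 0.00289). The other 5 were C1qb, Cd14, Lyz2, Adgre1 and C1qc. The summed linear signal of the list was 12305 to 13922 in the control arrays and 9449 to 11358 at 4 h, and most of it came from Cd14 and Cd68, with mean log2 signals of 12.72 and 11.98 in control. Cd68 did not pass (-0.24 ± 0.11, limma, adjusted p = 0.267). Of the 14 markers, 8 had a mean signal under the tested probe sets' median, among them the Kupffer cell marker Clec4f with 6.49. The mean of the 14 was 8.12, 8.11 and 7.99 in control replicates 1, 2 and 3, where Anpep read 10.64, 9.23 and 9.15. In bulk RNA fewer cells of a type and less RNA per cell cannot be told apart, and the part of these cells in the fall of Anpep was not tested. Of the 10 hepatocyte markers, Tdo2 alone passed the test, lower by 0.53, and the list had a median of -0.07. Estimates were below 0 for 8 of the 10. An unadjusted p under 0.05 was seen for 4, beside 17% of all probe sets. Among the other marker lists 1 of 10 stellate cell and fibroblast markers (Dcn) and 1 of 10 endothelial markers (Lyve1) fell. Of 6 bile duct markers 1 (Cldn4) rose. Over all probe sets 3.02% fell and 1.57% rose at 4 h.

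**Figure D3:**
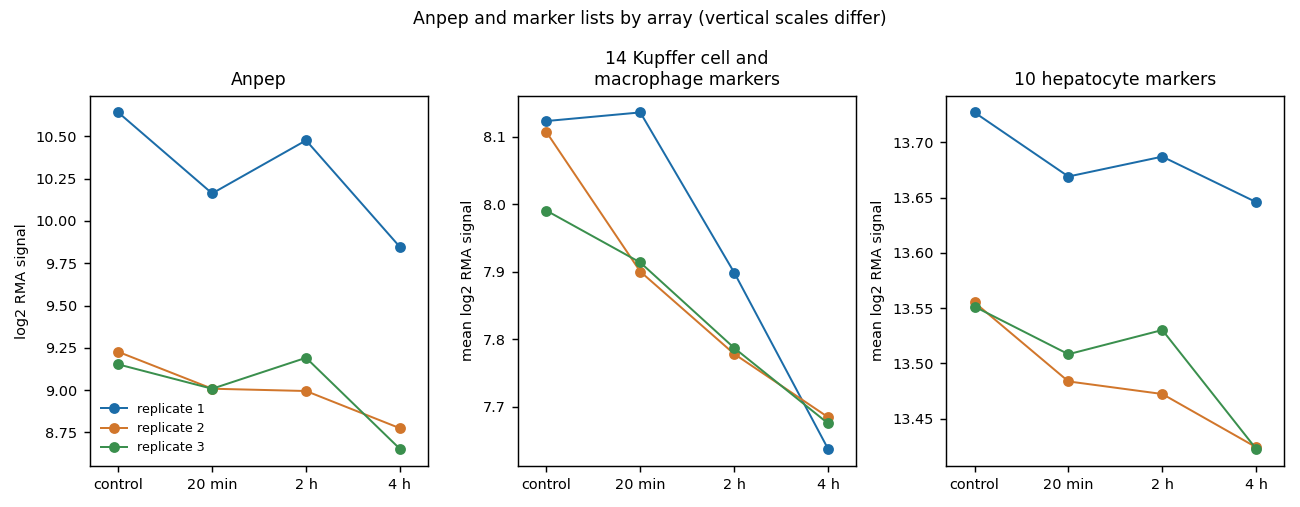
Log2 RMA signal of Anpep and mean log2 RMA signal of 14 Kupffer cell and macrophage markers and of 10 hepatocyte markers (vertical axes, own scales) by time point (horizontal axis). Points are single arrays joined by replicate number. The macrophage mean lies between 7.99 and 8.12 in control and between 7.64 and 7.68 at 4 h, and replicate 1 stands above the others at every time point for Anpep and the hepatocyte markers.

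At 2 h and at 20 min limma called 0 of the 10 genes, where it called 0% of all probe sets at either time. Unadjusted p values under 0.05 were seen for 1 of the 10 at 2 h (Gclc), beside 6.28% of all probe sets, and for 2 of the 10 at 20 min (Nqo1 and Anpep, both lower), beside 8.46%. The 10 changes had a median of 0.03 at 2 h and 0.00 at 20 min, and 0.01 and 0.00 over all probe sets.

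The 4 h group was also compared with the earlier treated groups in the same fit, so that the differences leave out the control arrays while the spread still rests on all 12. The 2 h and 20 min groups were not compared with each other. Between 4 h and 2 h none of the 10 passed, beside 0.078% of all probe sets, and Anpep alone had an unadjusted p under 0.05, beside 8.83%. Its change of -0.46 ± 0.09 was lower in 3 of 3 replicates (limma, adjusted p = 0.0824). It passed with array weights (0.0197), with a trended and robust prior (0.0415) and without the 2 h array of replicate 2 (0.0435). Between 4 h and 20 min none of the 10 passed either, beside 0.62% of all probe sets. Here 5 of the 10 had an unadjusted p under 0.05, beside 9.78%. Gclc was higher at 4 h by 0.35 ± 0.10, Nqo1 by 0.29 ± 0.09, Gclm by 0.21 ± 0.08 and Txnrd1 by 0.13 ± 0.06, and Anpep was lower by 0.30 (-0.30 ± 0.09). Each of these 5 pointed the same way in 3 of 3 replicates, with limma adjusted p values between 0.179 and 0.493. The Gclc difference was 0.68 in replicate 1 and 0.18 and 0.19 in replicates 2 and 3, and without replicate 1 it was 0.184.

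Of 17 measured regulators and partners of NRF2, 2 fell at 4 h, 0 rose and 15 did not pass, with a median of 0.03. Over all probe sets 3.02% fell and 1.57% rose. Bach1, the heme-binding repressor that competes with NRF2 for antioxidant response elements, fell from 11.17 ± 0.08 to 10.62 ± 0.11 (mean ± SD of 3 arrays), a change of -0.54 ± 0.09 that was negative in each replicate (limma, adjusted p = 0.00952). Atf3, a stress-induced transcription factor that can bind NRF2, fell by 0.85 ± 0.14 (limma, adjusted p = 0.00648), with -0.38, -1.12 and -1.04 in replicates 1, 2 and 3.

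Among 27 other measured NRF2 targets, 1 rose, 1 fell and 25 did not pass, beside 1.57% higher and 3.02% lower over all probe sets. Their median was 0.02. Pgd, an NADPH-forming enzyme of the pentose phosphate pathway, rose by 0.32 ± 0.07 (limma, adjusted p = 0.0316). Gsta4, a glutathione transferase for aldehydes from lipid peroxidation, fell by 0.36 ± 0.08 (limma, adjusted p = 0.0267). In the list of glutathione use, breakdown and recycling 2 of 29 fell and 0 rose, beside the same shares, with a median of -0.02. These were Idh1, a cytosolic NADPH-forming enzyme (-0.40 ± 0.08), and Oplah, the oxoprolinase that recovers glutamate from glutathione breakdown (-0.35 ± 0.09), with limma adjusted p values of 0.0196 and 0.0498.

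Of 17 genes of cysteine and methionine supply 4 fell and 0 rose, beside 3.02% and 1.57% of all probe sets. The median of -0.16 lay below that of all probe sets, 0.02. Cth, the lyase that releases cysteine at the end of transsulfuration, fell by 0.31 ± 0.08. The homocysteine methyltransferases Bhmt and Bhmt2 fell by 0.29 ± 0.07 and 0.42 ± 0.11, and Csad, which leads cysteine towards taurine, by 0.34 ± 0.08. Their limma adjusted p values lay between 0.0298 and 0.0498. Of 20 thioredoxins, peroxiredoxins and other antioxidant enzymes, limma called 0, with a median of -0.04. An unadjusted p under 0.05 was seen for 4 of them, beside 17% of all probe sets. The smallest p values there belonged to Txnip, an inhibitor of thioredoxin (-0.25 ± 0.07), and Msrb3, a methionine sulfoxide reductase (0.28 ± 0.08), with adjusted p values of 0.0581 and 0.0879. Without replicate 2, without replicate 3 or without the replicate block, limma called 0 genes of these 5 lists at 4 h.

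**Figure D4:**
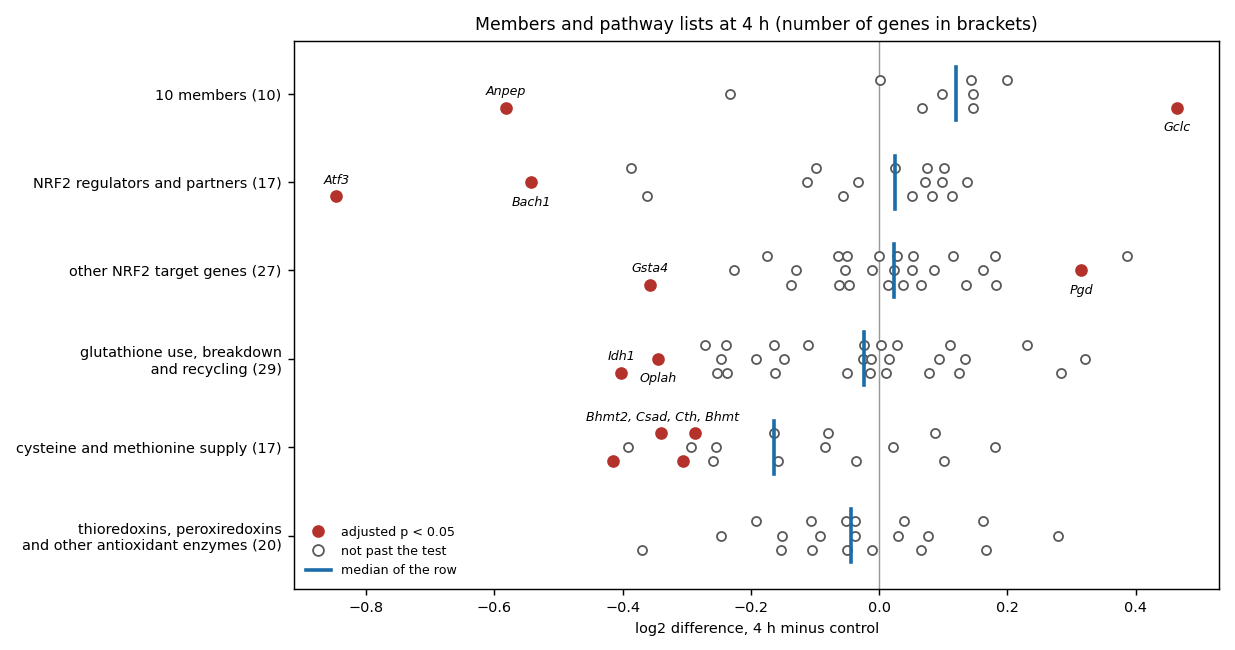
Log2 difference between 4 h and control (horizontal axis) of the 10 genes and of the measured genes of 5 pathway lists (rows, number of genes in brackets). Points are genes, filled red at an adjusted p under 0.05, and blue bars are medians, which lie between -0.16 for cysteine and methionine supply and 0.12 for the 10 genes.

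For each of the 10 genes, the tested gene with the most similar profile was sought by Pearson's r over the 12 arrays, centred within replicate number. This is a description, since arrays of the same replicate number are taken as paired and each gene is the best of all those tested. Gclc went with Sh3bp2 (r = 0.956) and Anpep with Albfm1 (r = 0.994), which changed by 0.39 and -0.52 at 4 h (limma, adjusted p = 0.0492 and 0.0057). Gclm went with Prrg4 (0.941), Txnrd1 with Exosc2 (0.968) and Nqo1 with Hbs1l (0.975). The remaining pairs were Gss with Rpl13, Gsr with Uprt, Hmox1 with Acy3, Srxn1 with Krtap4-2 and Nfe2l2 with Cfap97, with r between 0.942 and 0.976. No member of the 10 was the closest gene of another. Among the 45 pairs within the 10, centred in the same way, 28 had r above 0 and the median was 0.08. The values ran from -0.923 for Gss with Hmox1 to 0.856 for Gclc with Gclm.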

How the data were processed

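RNA of hepatocyte cultures was measured on 12 mouse arrays. The authors deposited log2 signals computed by RMA (Affymetrix Power Tools, no version stated), that is background correction, quantile normalization and summarization per probe set, while the methods state FARMS and ComBat for the study's own analysis. Of 35556 probe sets, 21789 with exactly 1 symbol in the platform annotation were tested, and 1621 with several and 12146 not listed were left out. No value was missing and 0 pairs of arrays were identical.

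The package limma 3.58.1 (lmFit, eBayes) in R 4.3.3 was used with factors for time point and replicate, as the methods state, 6 residual and 5.39 prior degrees of freedom, and Benjamini-Hochberg adjustment. Time courses were tested with the moderated F test, as betr was not used here. The replicate numbers were taken to pair the samples: deviations from the group means of same-numbered arrays correlated at 0.555 or more. Arrays of replicates 2 and 3 correlated with each other up to 0.722, so this check does not separate these numbers. The p values rest on the spread left after time point and replicate number are fitted, moderated by the prior. The gap between replicates does not enter them. Array number, 3 per group, limits the precision.

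Members and lists were chosen with earlier results of these data known. Named genes are all 10 members, up to 4 called genes per pathway list at 4 h by p (where fewer than 2 passed, the 2 smallest p), the most similar gene per member, and markers that moved with a member. In lists the brightest probe set of a gene is used. G6pdx, Gsta1, Gsta2, Ggt1, Mat2a, Ahcy, Prdx5, Prdx6 and Spp1 had no probe set with 1 symbol. Alternatives were no replicate block, a random block, the compared groups alone, all probe sets, those at or above the median signal, quantile normalization, median centring, a trended and robust prior, array weights, averaged probe sets, the study's threshold (adjusted p under 0.01 and a 2-fold change), and leaving out each replicate or, added after seeing the data, each array.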

Additional observations from a re-analysis of the deposited data

How the results depend on the processing

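With 3 arrays per group and replicate 1 apart, the calls depend on pairing by replicate number. In the fit with no replicate block, limma called 0 of the 10 genes higher and 0 lower at 4 h, 0 over the time course, and 0 genes in each direction in the pathway lists. With the block as a random effect it also called 0 higher, 0 lower and 0 over the time course. Testing all probe sets left 0 higher at 4 h and 0 over the time course. At 4 h these fits called 31, 225 and 371 probe sets in all, instead of 1000. Under the study's own threshold the counts at 4 h were 0 and 0. Array weights gave 2 genes higher at 4 h, 2 over the time course, 1 lower against 2 h, and 1 higher and 1 lower against 20 min, and a trended and robust prior gave 2 over the time course and 1 lower against 2 h. The cause was not tested. The Gclc call at 4 h held in 14 of 25 alternatives (adjusted p 0.00512 to 0.97) and that of Anpep in 22 of 25 (0.000964 to 0.996). These counts include the fits without 1 array, which were added after seeing the data. Leaving out a 20 min or 2 h array keeps the 4 h estimate and changes only the spread. Among the 13 alternatives other than the fits without 1 array, the Gclc call held in 8 and the Anpep call in 10.

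Of 250 recomputed changes at 4 h, 242 kept their sign. Many of them could not turn. Fits that change only the block, the prior, the groups fitted or the probe sets tested return the same 4 h estimate. Averaging the probe sets of a gene or leaving out a 20 min or 2 h array does so too. The count is therefore no measure of stability. With array weights the signs turned for Nfe2l2 at 4 h (-0.023), for Gss (-0.038) and Nqo1 (-0.020) at 2 h, and for Gclm (0.056), Txnrd1 (-0.0099) and Nfe2l2 (0.0056) at 20 min. With quantile normalization they turned for Nqo1 at 2 h (-0.0072) and Gclm at 20 min (0.010). These are estimates near 0 that passed no test.

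When 1 replicate or 1 array was left out, genes higher at 4 h numbered 0 to 1, lower 0 to 1, lower against 2 h 0 to 1, and called over the time course 0 to 2. Estimates with changing sign ranged at 4 h from -0.031 to 0.13 for Nqo1, -0.035 to 0.17 for Srxn1 and -0.036 to 0.035 for Nfe2l2. At 2 h they ranged from -0.12 to 0.086 for Gss, -0.042 to 0.11 for Gsr, -0.11 to 0.099 for Nqo1, -0.18 to 0.12 for Hmox1, -0.027 to 0.12 for Srxn1 and -0.017 to 0.052 for Nfe2l2. At 20 min they ranged from -0.066 to 0.083 for Gclm, -0.021 to 0.060 for Txnrd1, -0.022 to 0.12 for Srxn1 and -0.063 to 0.042 for Nfe2l2. Without a replicate, the lists gave 0 to 3 regulators lower, 0 to 0 other targets higher and 0 to 0 lower, 0 to 1 genes of glutathione use higher and 0 to 0 lower, and 0 to 1 genes of cysteine and methionine supply lower.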
